A study of Mus musculus with 6 samples.

Results

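Creatine kinases and the adenylate system hold the ATP of a muscle fibre steady while demand changes. Creatine kinase moves a phosphate between ATP and creatine: the mitochondrial enzymes make phosphocreatine where ATP is produced, and the cytosolic enzymes rebuild ATP from it beside the myofibrils and the calcium pumps. Adenylate kinase recovers ATP from ADP and leaves AMP, which AMP deaminase turns into IMP, the first step of the purine nucleotide cycle that later returns the adenylate. The genes described here were chosen by name for these roles. No measured value entered the rule, but earlier results of these data were known when the genes were chosen. They are the creatine kinases Ckm, Ckb, Ckmt1 and Ckmt2, the creatine transporter Slc6a8, the enzymes of creatine synthesis Gatm and Gamt, adenylate kinase Ak1, and the AMP deaminases Ampd1 and Ampd3. These 10 genes were represented by 15 of the 56605 probes on the array.

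Quadriceps RNA came from 6 males of the AR97Q line, aged 9 weeks, and each mouse had its own array. AR97Q mice model spinal and bulbar muscular atrophy (SBMA) and carry a human androgen receptor gene with 97 CAG repeats. All 6 mice carried this transgene, and the promoter that drives it is not given in the sources used here. The 3 mice of the exercise group ran at 5 m/min for 60 min a day, 5 days a week, for 4 weeks from 5 weeks of age, whereas the 3 mice of the sedentary group did not undergo this regimen. Arrays of wild-type mice were not analysed here, so no value below can be set against healthy muscle.

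Each value is a log2 signal, the brightness of a probe relative to the 75th percentile of its own array, so 0 marks the 75th percentile and a difference of 1 is a doubling. Levels are compared for 1 probe between arrays and never between genes. Of 10 defining genes of skeletal muscle fibre, among them Acta1, Ttn and Ryr1, all 10 were detected, which does not tell the quadriceps from another skeletal muscle. Before scaling, that percentile had been 251 to 257 in the exercise mice and 310 to 384 in the sedentary mice. With no scaling the median log2 fold change of all genes was -0.45 instead of 0.026. Leaving out the scaling moved every gene by the same -0.47, so log2 fold changes with no scaling differ from those below by that amount alone. The arrays lay on 1 slide. The strip of an array is taken here from a number in its scanner barcode, and the sample labels do not name it. By that number, 1 strip held the exercise arrays and sedentary mouse 1, and the other held sedentary mice 2 and 3. The changes of the 10 genes are therefore also given against sedentary mouse 1 alone. That value has 1 sedentary array and no test.

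In the exercised quadriceps, 5 of the 10 genes were higher and 1 was lower at FDR < 0.05 (limma with Benjamini-Hochberg adjustment over 25005 genes and transcripts). Ckm, Ak1, Ckmt2, Ampd1 and Ckmt1 rose, whereas Ampd3 fell. All 10 genes passed the filter on dim probes. Among everything tested, 11.5% were higher and 6.12% were lower at this FDR, or 17.6% in either direction. Ckm and Ak1 also passed an absolute log2 fold change of 1, as did 2.78% of everything tested (1.72% higher and 1.06% lower). The median log2 fold change was 0.41 over the 10 genes and 0.026 over all genes tested. By the probe tested for each gene, the arrays of the groups did not overlap in 9 of the 10 genes, with 7 higher and 2 lower. Ckb and Slc6a8 were counted as higher, but another probe of Ckb was lower without overlap and another of Slc6a8 overlapped. Further probes of Ampd3 and Gatm were lower without overlap, as the tested probes were. Among everything tested 43.2% did not overlap, 25.0% higher and 18.2% lower. In bulk muscle RNA, fewer fibres of a type and less RNA per fibre cannot be told apart.

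**Figure D1:**
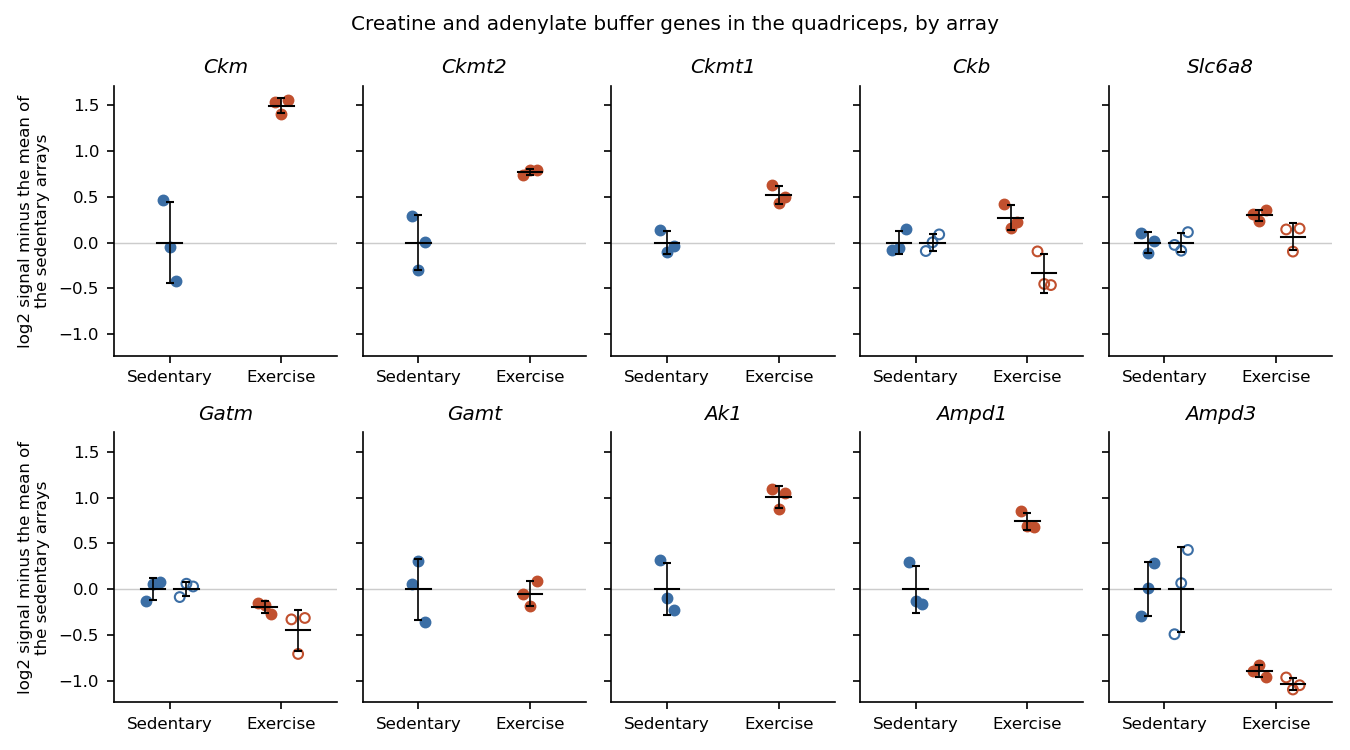
Log2 signal of each gene on each array, minus the mean of the 3 sedentary arrays of the same probe (sedentary in blue, exercise in orange). Filled points are the probe tested for the gene, open points another kept probe, and bars the mean ± SD (n = 3). The exercise arrays of Ckm lie 1.50 above the sedentary mean on average, those of Ampd3 lie below it for both probes, and Gamt overlaps.

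The creatine kinases differed in size of change. The upstream sequences of 3 of them are given to show a cytosolic and a mitochondrial muscle gene whose signals rose beside the cytosolic brain-type gene, whose signal did not pass the test. Each is the run of 250 bases before the RefSeq start site in GRCm38.p6, written 5′ to 3′ on the strand of the gene. Capitals mark matches to motifs known from muscle promoters: the E-box CANNTG, the MCAT motif CATTCC on either strand, the MEF2 and CArG motifs, and TATAAA.
Ckm, chr7:19410844-19411093, plus strand: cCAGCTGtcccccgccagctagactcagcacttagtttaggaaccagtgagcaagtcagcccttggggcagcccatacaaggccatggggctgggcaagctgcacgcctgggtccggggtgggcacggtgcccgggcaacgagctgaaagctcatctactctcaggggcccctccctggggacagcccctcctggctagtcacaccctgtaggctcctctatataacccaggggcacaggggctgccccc
Ckmt2, chr13:91876886-91877135, minus strand: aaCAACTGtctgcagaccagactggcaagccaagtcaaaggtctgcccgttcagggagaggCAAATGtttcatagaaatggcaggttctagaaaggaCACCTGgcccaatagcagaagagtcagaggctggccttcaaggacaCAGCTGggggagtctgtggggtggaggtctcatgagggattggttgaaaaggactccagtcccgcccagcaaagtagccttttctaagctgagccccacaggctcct
Ckb, chr12:111672339-111672588, minus strand: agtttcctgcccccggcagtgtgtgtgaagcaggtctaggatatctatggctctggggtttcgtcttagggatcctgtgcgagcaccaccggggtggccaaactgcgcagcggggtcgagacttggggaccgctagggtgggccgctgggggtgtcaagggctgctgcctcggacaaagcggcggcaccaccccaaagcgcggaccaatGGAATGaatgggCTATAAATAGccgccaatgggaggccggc
The Ckm window held 1 E-box and the Ckmt2 window held 4. The Ckb window held no E-box but 1 match each to MCAT, MEF2 and TATAAA, of which the MEF2 and TATAAA matches overlap. E-boxes are common letters: searched on both strands, 66.2% of 32851 RefSeq windows of this length held at least 1, and 12.6% held MCAT, 0.508% MEF2, 1.47% CArG and 12.4% TATAAA. The table listed windows for 8 of the 10 genes, 14 in all, and 9 of these (64.3%) held an E-box. The 4 Ak1 windows each held at least 1 E-box, and 1 of the 3 Ampd3 windows held a CArG match. The letters of a window describe it and show no binding.

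Ckm encodes the muscle cytosolic creatine kinase, which sits at the M-line and rebuilds ATP next to myosin. Its log2 signal was 8.85, 8.73 and 8.87 in exercise mice 1 to 3, and 7.79, 7.28 and 6.90 in sedentary mice 1 to 3. All exercise arrays lay close together and above the sedentary arrays, which were spread over a wider range with sedentary mouse 1 the highest. The means were 8.82 ± 0.08 and 7.32 ± 0.45 (SD, n = 3 each), a log2 fold change of 1.50 (SE 0.22, adjusted p = 0.0234), or 2.82-fold (95% interval 1.94 to 4.10). This was the largest change among the 10 genes, and 0.616% of everything tested had a larger rise. Against sedentary mouse 1 alone it was 1.03.

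Ckmt2 encodes the sarcomeric mitochondrial creatine kinase of the intermembrane space of muscle mitochondria. Its log2 signal was 8.71, 8.76 and 8.76 in the exercise mice, and 8.26, 7.67 and 7.97 in the sedentary mice. The groups did not overlap, and the exercise arrays differed from each other by less than any pair of sedentary arrays did. The mean was 0.77 higher in the exercise group on the log2 scale (SE 0.16, adjusted p = 0.0288), or 1.71-fold (95% interval 1.31 to 2.22), and it was 0.48 against sedentary mouse 1 alone. The call was lost under quantile normalization (0.34, adjusted p = 0.130), in the deposited table (0.61, adjusted p = 0.0544), with normexp background correction and quantile normalization together (0.35, adjusted p = 0.0839) and with no scaling (0.30, adjusted p = 0.103).

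Ckmt1 encodes the other mitochondrial form, known as ubiquitous because brain and other tissues use it. Its log2 signal was 2.49, 2.30 and 2.36 in the exercise mice, and 2.01, 1.76 and 1.83 in the sedentary mice. Again the groups did not overlap. The rise was 0.52 on the log2 scale (SE 0.10, adjusted p = 0.0280), or 1.43-fold (95% interval 1.20 to 1.71), and 0.38 against sedentary mouse 1 alone. It missed the threshold in the deposited table (0.36, adjusted p = 0.0742) and with no scaling (0.047, adjusted p = 0.746). A second Ckmt1 probe gave no signal well above background in any mouse and was not tested.

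Ckb encodes the brain-type cytosolic creatine kinase, which is abundant in embryonic muscle and gives way to Ckm as fibres mature. Its brighter probe gave 1.05, 0.79 and 0.84 in the exercise mice and 0.54, 0.56 and 0.77 in the sedentary mice. These exercise arrays all lay above the sedentary arrays, with a gap of only 0.0199 between the nearest pair. The log2 fold change of this probe was 0.27 (SE 0.11, adjusted p = 0.139), and 0.35 against sedentary mouse 1 alone. The other Ckb probe read the opposite way, at 0.65, 0.29 and 0.28 in the exercise mice and 0.65, 0.74 and 0.83 in the sedentary mice. Its log2 fold change was -0.34 (SE 0.13, adjusted p = 0.118). No direction can be given for Ckb, as the probes disagreed in sign and neither passed the test.

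The genes that supply creatine did not pass the test. Slc6a8 encodes the sodium-driven transporter through which muscle takes up creatine from blood, and its log2 signal was 5.10, 5.02 and 5.14 in the exercise mice and 4.89, 4.67 and 4.81 in the sedentary mice. The groups did not overlap, but the log2 fold change of 0.30 (SE 0.09) had an adjusted p of 0.0723. Against sedentary mouse 1 alone it was 0.20, and a dimmer Slc6a8 probe gave 0.07 (adjusted p = 0.697). Gatm encodes the amidinotransferase that makes guanidinoacetate, chiefly in kidney. Its log2 signal was -1.26, -1.30 and -1.39 in the exercise mice and -1.25, -1.06 and -1.04 in the sedentary mice. The nearest arrays of the groups were 0.0145 apart, and the log2 fold change was -0.20 (SE 0.10, adjusted p = 0.184), or -0.066 against sedentary mouse 1 alone. A dimmer Gatm probe gave -0.45 (SE 0.13, adjusted p = 0.0643). Gamt encodes the methyltransferase that completes creatine from guanidinoacetate. It was the only one of the 10 whose groups overlapped, at 2.77, 2.64 and 2.91 in the exercise mice and 2.88, 3.13 and 2.47 in the sedentary mice. The log2 fold change was -0.05 (SE 0.18, adjusted p = 0.867), with a 95% interval of -0.49 to 0.39, and -0.10 against sedentary mouse 1 alone.

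**Figure D2:**
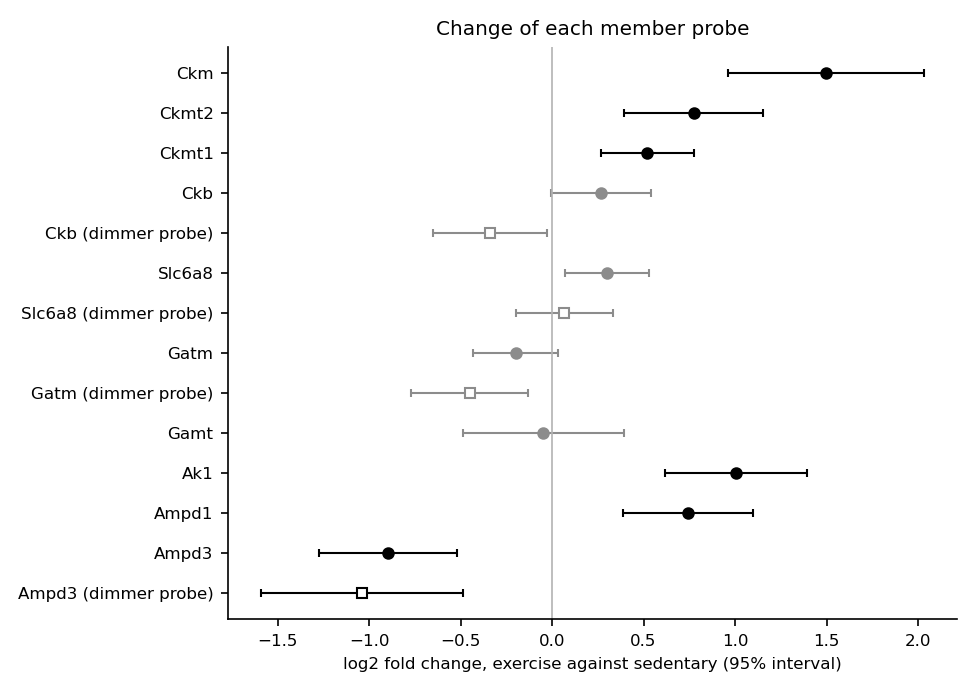
Log2 fold change of each tested or kept probe, exercise against sedentary, with its 95% interval (x axis, log2 units). Circles are the probe used for the gene, squares a dimmer probe of it, and black marks an adjusted p under 0.05. The 2 Ampd3 probes lie at -0.90 and -1.04, whereas the 2 Ckb probes lie on opposite sides of 0.

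Ak1 encodes the cytosolic adenylate kinase of muscle, which turns 2 ADP into ATP and AMP. Its log2 signal was 8.75, 8.53 and 8.71 in the exercise mice, and 7.98, 7.56 and 7.43 in the sedentary mice. Every exercise array was higher than every sedentary array, and sedentary mouse 1 again lay nearest to the exercise group. The difference of the means was 1.01 on the log2 scale (SE 0.16, adjusted p = 0.0236), or 2.01-fold (95% interval 1.53 to 2.63). Against sedentary mouse 1 alone it was 0.68. Over all arrays, 2.34% of everything tested had a larger rise. The smallest value under another scaling was 0.53, with no scaling, and Ak1 passed the threshold there too.

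The AMP deaminases moved in opposite directions. Ampd1 encodes the isoform that predominates in skeletal muscle, where it forms IMP from AMP during hard contraction. Its log2 signal was 5.54, 5.39 and 5.38 in the exercise mice, and 4.99, 4.57 and 4.53 in the sedentary mice, with no overlap. The log2 fold change was 0.74 (SE 0.15, adjusted p = 0.0275), or 1.67-fold (95% interval 1.31 to 2.14), and 0.45 against sedentary mouse 1 alone. It was 0.52 with an adjusted p of 0.0517 under quantile normalization, and 0.27 (adjusted p = 0.100) with no scaling.

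Ampd3 encodes the isoform known from red blood cells, which is also expressed in muscle and other tissues. Its brighter probe gave 1.49, 1.55 and 1.43 in the exercise mice, and 2.09, 2.39 and 2.67 in the sedentary mice. Here the sedentary arrays were the higher ones, and sedentary mouse 1 was the lowest of them. The log2 fold change was -0.90 (SE 0.16, adjusted p = 0.0241), so the signal was 1.86-fold lower (95% interval 1.43 to 2.42), and -0.60 against sedentary mouse 1 alone. A dimmer Ampd3 probe gave -2.75, -2.88 and -2.84 in the exercise mice and -2.28, -1.72 and -1.36 in the sedentary mice. This probe showed the same direction without overlap, with a log2 fold change of -1.04 (SE 0.23, adjusted p = 0.0346). The brighter probe was lower in the exercise group and past the threshold under each scaling tried, from -0.81 after subtraction of the array median to -1.37 with no scaling.

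Because Ampd3 is known from red blood cells and is also expressed in other blood-derived cells, their markers are given beside it. Of 8 red blood cell markers, 5 were tested and none passed the test by limma or had an unadjusted p under 0.05. All 5 were nevertheless above 0, with a median log2 fold change of 0.53. Their mean log2 signal ranged from 3.45 to 3.84 in the exercise mice and from 2.77 to 3.94 in the sedentary mice, with sedentary mouse 1 the highest. Epb42 stayed below the limit of well above background in every mouse. Of 10 macrophage markers, 10 were tested and again none passed or had an unadjusted p under 0.05, with means of 2.56 to 2.83 and 2.57 to 2.85. Their median log2 fold change was 0.0046. The part of these cells in the Ampd3 signal was not tested.

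Differences between 2 genes on the same array do not change when an array is scaled by 1 factor, and 8 pairs were compared in this way after the values had been seen. Each difference is given relative to its mean over the sedentary arrays. For Ampd1 minus Ampd3 it was 1.74, 1.53 and 1.64 in the exercise mice and 0.59, -0.14 and -0.46 in the sedentary mice. The groups did not overlap, and their means were 1.64 apart on the log2 scale (3.11-fold), or 1.05 against sedentary mouse 1 alone. For Ckm minus Ckb, with the brighter Ckb probe, the shift was 1.23 (2.34-fold), or 0.68 against sedentary mouse 1 alone. Its size depends on the Ckb probe, since the other probe read the opposite way, and it was not computed with that probe. For Ckm minus Ckmt2 the shift was 0.72 (1.65-fold), or 0.55 against sedentary mouse 1 alone. For Ak1 minus Ckm the shift was -0.49, and -0.35 against sedentary mouse 1 alone. The groups overlapped only for Ckmt2 minus Ckmt1, with a shift of 0.25 (two-sided exact permutation p = 0.2), or 0.098 against sedentary mouse 1 alone. The other 7 pairs reached p = 0.1 by exact permutation (0.114 after adjustment over the 8), where 0.1 is the smallest p that 3 arrays against 3 allow. Every gene in these pairs had arrays that did not overlap on its own, as did 43.2% of everything tested. The share of all gene pairs without overlap was not computed, so the count of pairs describes these 8 alone.

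**Figure D3:**
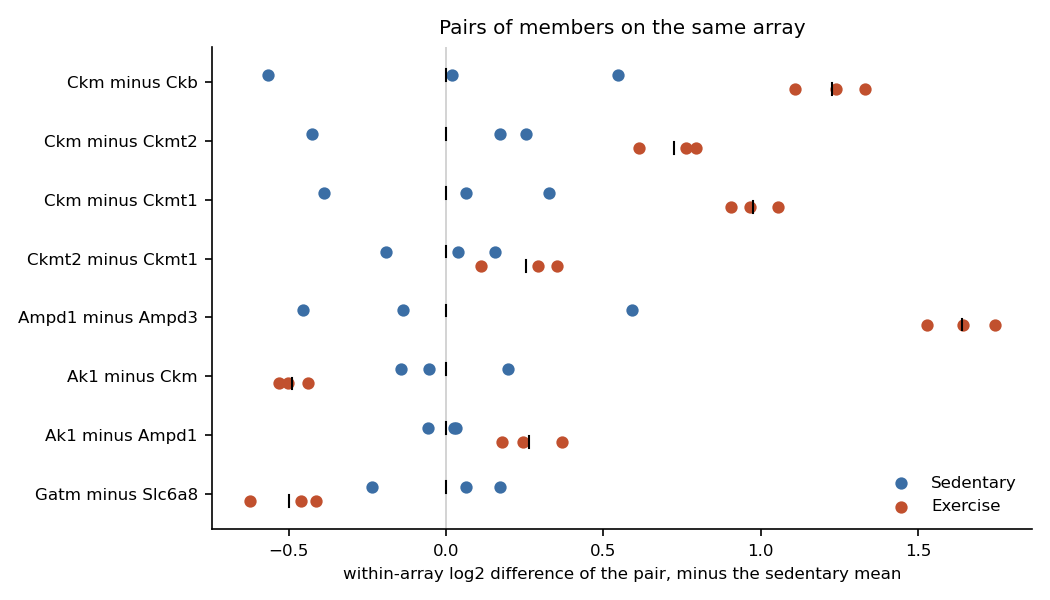
Within-array log2 difference of 8 pairs of genes on each array, minus the mean of the pair over the sedentary arrays (x axis, log2 units; sedentary in blue, exercise in orange, ticks at the group means). Ampd1 minus Ampd3 shows the widest separation, with a shift of 1.64, and Ckmt2 minus Ckmt1 overlaps.

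The neighbours of these enzymes were read from 6 lists of 49 related genes, of which 44 were tested. By limma, 13 were higher and 3 were lower, with a median log2 fold change of 0.11. Among everything tested, 11.5% were higher and 6.12% were lower, and lists with 1 call among a few genes are near that share. Of 4 further genes of the purine nucleotide cycle and beside it, Ampd2 among them, 1 rose. This was Adssl1, the muscle adenylosuccinate synthase that takes IMP back towards AMP. It read 8.20, 8.09 and 8.29 in the exercise mice and 7.45, 7.04 and 6.91 in the sedentary mice, a log2 fold change of 1.06 (SE 0.16, adjusted p = 0.0234). The other synthase, Adss, was at -0.39 (adjusted p = 0.0763). The lyase Adsl, which completes the cycle, was at 0.25 (adjusted p = 0.103).

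ATP and creatine phosphate cross the mitochondrial membranes through carriers and channels, and 5 of 6 genes of this list rose, with a list median of 0.49. They were the outer membrane channels Vdac3 (log2 fold change 0.67, adjusted p = 0.0234), Vdac1 (0.61, 0.0284) and Vdac2 (0.47, 0.0279), the heart and muscle ADP/ATP carrier Slc25a4 (0.51, 0.0311) and the phosphate carrier Slc25a3 (0.40, 0.0486). The ADP/ATP carrier Slc25a5, which predominates in proliferating cells, was at -0.53 and missed the threshold (adjusted p = 0.0530).

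Of the other adenylate kinases, 4 of 7 were tested and Ak6, a nuclear enzyme, rose (0.97, adjusted p = 0.0234). The mitochondrial Ak3 and Ak4 were at 0.30 and -0.51 and did not pass. Among 16 genes of purine salvage and breakdown, 3 rose and 2 fell. Those that rose were the GMP reductase Gmpr (0.66, adjusted p = 0.0322), adenosine kinase Adk (0.56, adjusted p = 0.0441) and the adenine salvage enzyme Aprt (0.33, adjusted p = 0.0408). The IMP-preferring nucleotidase Nt5c2 (-0.90, adjusted p = 0.0328) and Gmpr2 (-0.43, adjusted p = 0.0382) fell. Of 6 nucleoside diphosphate kinases, Nme6 (0.78, adjusted p = 0.0236) and Nme2 (0.42, adjusted p = 0.0288) rose and Nme7 (-0.74, adjusted p = 0.0264) fell. In the list of guanidinoacetate and methyl supply, 8 of 10 were tested and Pemt, which spends methyl groups on phosphatidylcholine, rose (0.47, adjusted p = 0.0378).

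Against sedentary mouse 1 alone, all 16 called genes of these lists kept their direction, and 8 differed by over 1.5 times from the value over all arrays. These were Vdac1 (0.37), Slc25a4 (0.32), Slc25a3 (0.26), Adk (0.37), Gmpr (0.44), Nt5c2 (-0.47), Nme7 (-0.45) and Pemt (0.29), and Adssl1 was at 0.74.

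**Figure D4:**
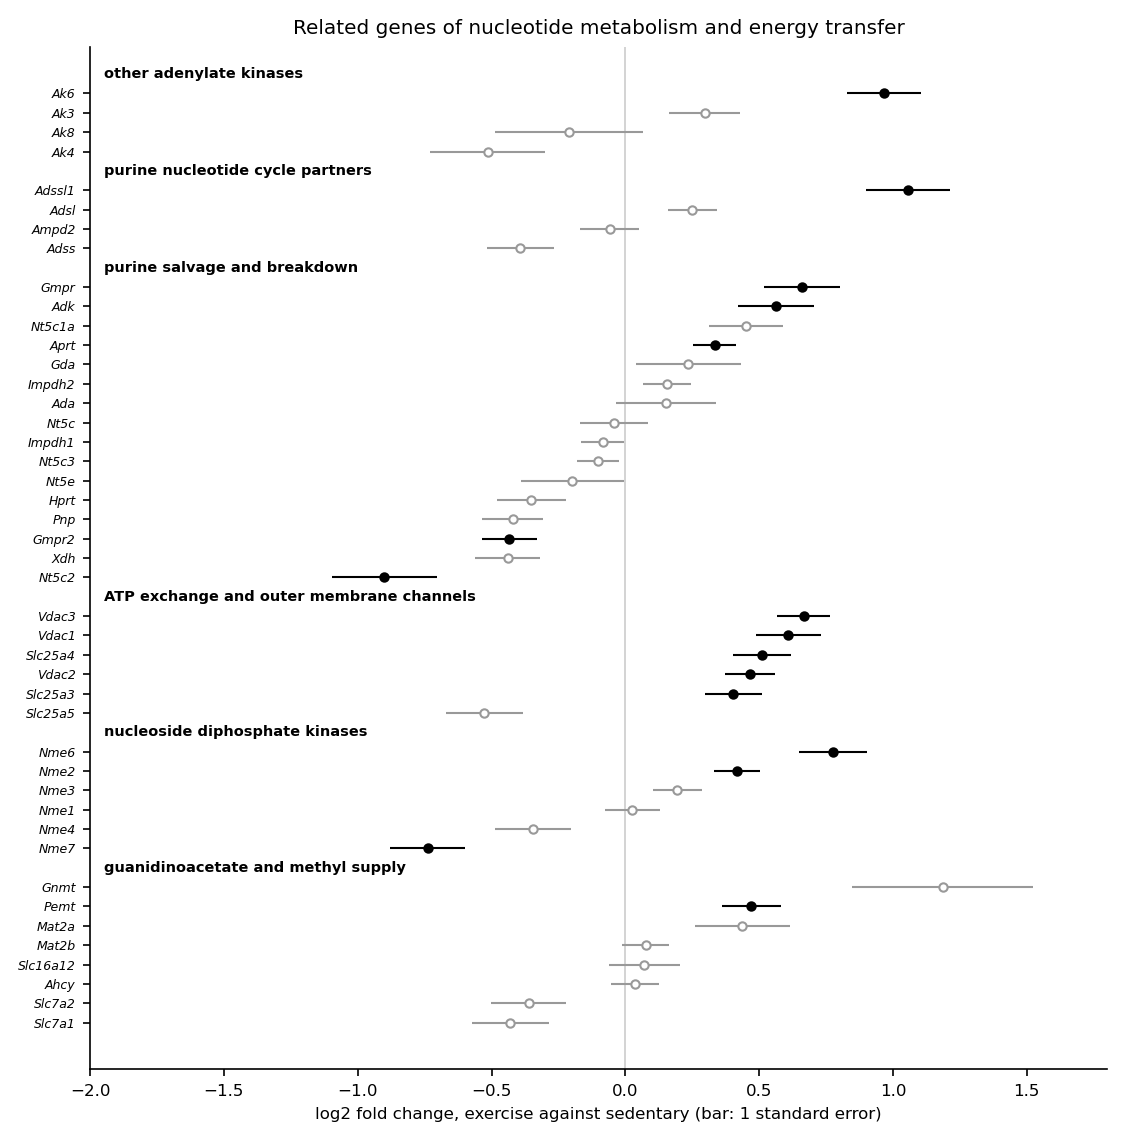
Log2 fold change of the 44 tested genes of 6 related lists, exercise against sedentary (x axis, log2 units; bars are 1 standard error). Black points passed FDR < 0.05. Adssl1 is at 1.06, and 5 of the 6 genes of ATP exchange are to the right of 0.

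Markers of fibre type and innervation moved with these genes. Of 10 fast-twitch fibre markers, 9 were higher in the exercise group (median log2 fold change 0.96), and their mean log2 signal was 8.86 to 9.07 in the exercise mice and 7.68 to 8.37 in the sedentary mice. Of 12 denervation markers, 10 were lower (median -1.28), with means of 0.64 to 0.93 and 1.63 to 2.77. Another probe of Myh3, which was among the 10, read higher (0.92), whereas further probes of Chrng, Ncam1, Runx1, Musk and Hdac4 read lower. Of 10 slow-twitch markers, 1 was higher and 2 were lower (median -0.42, 8 of the 10 below 0), with means of 2.78 to 3.97 and 3.47 to 4.01. Among everything tested 11.5% were higher and 6.12% lower. Sedentary mouse 1 had the highest fast-twitch mean and the lowest denervation mean of its group, and in all 6 genes called above it was the sedentary mouse nearest to the exercise group, as it was for 74.1% of all genes called. Of 10 skeletal muscle fibre markers, 7 were higher (median 0.71, means of 7.40 to 7.65 and 6.75 to 7.05). The part of these shifts in the changes of the creatine and adenylate genes was not tested.

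Of the other cell types, no endothelial (10 tested, median -0.023) or fibroblast marker (10 tested, median 0.023) passed the test by limma, and 1 and 0 of them had an unadjusted p under 0.05. In 10 smooth muscle markers 2 were higher and 2 lower (median -0.22). The higher ones were Acta2 (1.32) and Synpo2 (0.71), but further probes of both read lower. Further probes of Myh11, which was lower, also read lower. In 10 adipocyte markers 1 was higher (median -0.68), and in 10 Schwann cell and nerve markers 1 was lower (median -0.34). By comparison, 11.5% of everything tested were higher and 6.12% lower, so 1 call in 10 is near those shares. The part of these cell types in the changes was not tested either.

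The calls rested on all but 1 of the arrays. Leaving out exercise mouse 1, 2 or 3 or sedentary mouse 2 or 3 left 0 of the 6 called genes past the threshold (adjusted p between 0.0585 and 0.107), although 6 to 8 of the 10 genes had an unadjusted p under 0.05 each time. The same was true of the whole array, where these settings left at most 1 of 25005 past the threshold and 6686 to 8146 with an unadjusted p under 0.05. Without sedentary mouse 1, all 6 passed (adjusted p between 0.00902 and 0.0194). With the strip as a block, none of the 6 passed by limma (adjusted p between 0.153 and 0.213), and 6 of the 10 genes had an unadjusted p under 0.05. Over the whole array that block left 3 past the threshold. The direction of each of the 6 was the same in all 19 alternatives. Not all of these could change it. The replicate block and the trended, robust variance leave the log2 fold change as it was. The filters on dim probes kept the same values for these genes. The strip as a block gives the same log2 fold changes as sedentary mouse 1 alone.

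**Figure D5:**
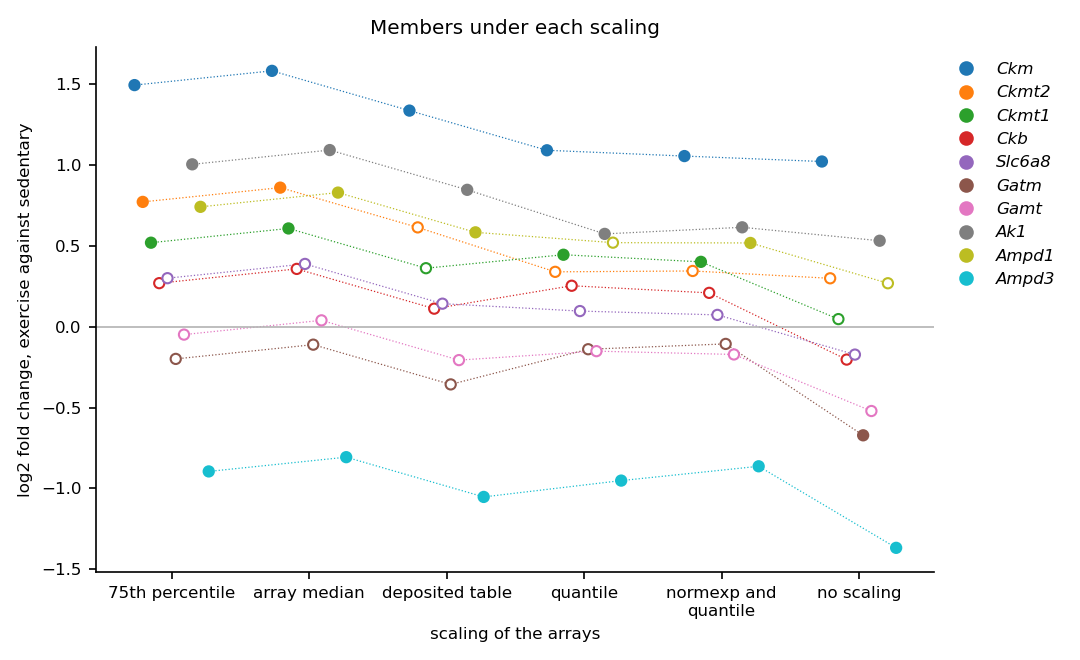
Log2 fold change of each gene (y axis, log2 units) under 6 ways of scaling the arrays (x axis). Filled points passed FDR < 0.05 and open points did not. Ckm and Ak1 stay above 0 and Ampd3 below it with filled points throughout, whereas Ckb, Slc6a8 and Gamt cross 0. The array median, the deposited table and no scaling each move all genes by 1 constant.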

How the data were processed

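The authors labelled quadriceps RNA with Cy3, hybridized it to Agilent 1-colour arrays (design build mm9) and read them with Feature Extraction 12.1.0.3, which subtracted background and spatial trends. The deposited processed signals are intensities on a linear scale. The deposited series table holds the same intensities multiplied by 1 factor per array.

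Control and outlier spots were removed, log2 signals were averaged per probe, and the 75th percentile of an array was taken off its values. A probe had to be well above background on 3 or more of the 6 arrays, and the probe with the highest mean stood for a gene. Dimmer probes were tested in a fit over all kept probes. Probes were named by RefSeq accession, of which 34566 of 56605 matched (GRCm38.p6). Groups, taken from the labels, were compared by limma (version 3.58.1, R 4.3.3), two-sided, without covariates. The test was tried on simulated data in which 200 of 25005 genes carried a log2 shift of 2, of which 96.5% were recovered, and it called 10 unchanged genes. That shift is larger than the largest change of the creatine and adenylate genes (Ckm, 1.50). The simulated arrays had independent noise and no strips, so the recovery of changes of the sizes seen here is not known from it. Pairs were tested in scipy 1.17.1. No spot was saturated, 54.6 to 59.9% of probes were well above background, and the number of arrays limits the precision.

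The genes and lists were chosen with earlier results of these data known, and some list genes are not reported here. Named were all genes of the set and, in each related list, those past FDR < 0.05, up to 6. The Ckb sequence, the pairs and the other values named were added after the values were seen. Alternatives were other scalings, background corrections, filters, probe rules, variance models and thresholds, blocks, and each array left out.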

Additional observations from a re-analysis of the deposited data

How the results depend on the processing

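Of the 10 genes, 5 were higher and 1 was lower at FDR < 0.05. Quantile normalization left 3 higher, the deposited values also 3, and a fold change minimum 2 higher and 0 lower. With no scaling 2 were higher and 2 lower. The replicate number as a block left 0 higher and 0 lower (adjusted p of the 6 called genes 0.0606 to 0.0666), as did the strip as a block. The sample titles do not say whether replicate numbers pair the mice. Deviations of same-numbered arrays correlated at 0.015, 0.085 and 0.036, which cannot settle it. Leaving out 1 array gave 0 to 5 higher and 0 to 1 lower. The median log2 fold change of 0.41 was -0.063 with no scaling, 0.25 in the deposited table and 0.28 with normexp and quantile normalization, and 0.35 to 0.47 with 1 array left out. The first and second of these settings move every gene by 1 constant, and the median of the 10 genes lay 0.38 above that of all genes in both, as with the 75th percentile (0.29 with normexp and quantile normalization). The related lists held 16 calls, and 9 under quantile normalization.

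Gamt turned to 0.0395 with the array median subtracted, and lay between -0.23 and 0.10 with 1 array left out, above 0 without exercise mouse 2 (0.0178) and without sedentary mouse 2 (0.10). Ckb turned to -0.20 and Slc6a8 to -0.17 with no scaling, and Ckb to -0.034 with the mean of its probes and to -0.34 with its dimmer probe. The changes with no scaling and with the array median are constants of -0.47 and 0.088 common to all genes. The Ckb values with the mean of its probes and with its dimmer probe reflect the opposite signs of those probes. Why the probes differ, and the cause of the Gamt values with 1 array left out, were not tested. Gatm passed with no scaling (-0.67, adjusted p = 0.0193), Slc6a8 with a trended, robust variance (0.30, 0.0282) and with array weights (0.38, 0.0181), and Ckb with array weights (0.32, 0.0495).

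Over all genes, 2868 were higher and 1530 lower. These counts were 1865 and 1363 with quantile normalization, 1172 and 3201 in the deposited table, 617 and 11280 with no scaling, 2680 and 872 with the array median subtracted, 9741 and 1918 with no filter on dim probes, 5124 and 3627 with array weights, 0 and 3 with the strip block and 0 and 0 with the replicate block. Leaving out 1 array other than sedentary mouse 1 gave 0 higher and 0 or 1 lower, and leaving out sedentary mouse 1 gave 3476 and 2060. Unadjusted p was under 0.05 for 6 and 7 of the 10 genes with the strip block and the replicate block, and over all genes for 4827 genes with the strip block and 8591 with the replicate block.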
